A study of Homo sapiens with 6 samples.

Results

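CDK14, CDK16, CDK17 and CDK18 encode the kinases of the PFTAIRE and PCTAIRE branch of the cyclin-dependent kinase family, and CCNY and CCNYL1 encode cyclin Y and its close relative. These 6 genes were chosen by symbol, out of 56638 gene symbols listed, and all 6 had enough reads to be tested. The set was built around CDK14, which was selected on its rise in the comparison described here, while its relatives entered by kinship. The differences between the groups are therefore given for all 6 as descriptions, without p-values.

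RNA was sequenced from cells labelled HT29, an established human colorectal cancer line at passage 16-19. In 3 libraries the cells had taken up RNF6 siRNA and are labelled RNF6 knockdown, and in 3 they had taken up nonspecific siRNA and are labelled wild type. The product of RNF6 is a ubiquitin ligase with a RING finger. The labels state neither the time between transfection and harvest nor whether a replicate number marks a culture or a different siRNA. The p-values therefore weigh a group difference only against the spread among these libraries, and that spread may be technical.

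The branch is named for a stretch of the helix through which a cyclin-dependent kinase meets its cyclin. CDK14 carries PFTAIRE there, and CDK16, CDK17 and CDK18 carry PCTAIRE. CDK14 and CDK16 are activated by cyclin Y, a cyclin held at the plasma membrane by a lipid anchor, and by CCNYL1. Late in the cell cycle, CDK14 with cyclin Y phosphorylates the Wnt coreceptor LRP6, which primes a cell for Wnt signalling. CDK16 is best known for its role in spermatogenesis and membrane traffic, and CDK17 and CDK18 are less studied.

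The coding bases of the name-giving motif are printed because its second codon, marked in capitals, sets PFTAIRE apart from PCTAIRE. The sequences were read 5′ to 3′ from GENCODE release 29 transcripts (GRCh38).
CDK14: cctTTCacagctatcagggaa
CDK15: ccaTTTacagctatccgagaa
CDK16: cccTGCaccgccatccgggaa
CDK17: cccTGCacagctataagagaa
CDK18: cccTGCactgccatccgagag
Over these 21 bases, CDK14 differs from CDK17 and from CDK15 at 4 positions each, from CDK16 at 5 and from CDK18 at 7. CDK16 and CDK18 are the closest pair, with 3 positions apart. CDK15, the other PFTAIRE kinase, was listed with 0, 1 and 1 reads in RNF6 siRNA replicates 1, 2 and 3 and 0, 0 and 1 in control replicates 1, 2 and 3. It was not tested.

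The genes lie on 6 different chromosomes: CDK14 on 7, CDK16 on X, CDK17 on 12, CDK18 on 1, CCNY on 10 and CCNYL1 on 2. Reads of 1 gene could hardly be taken for another's. Of the 50-base words in annotated transcripts, CDK16 and CDK17 shared 0% with any other gene, CCNY 0.0168%, CDK18 0.0669% and CDK14 2.13%, the last with its neighbour CLDN12. CCNYL1 shared 15.2%, most of it (10.7%) with an antisense transcript not analysed here. Its level is therefore less certain than the rest.

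Between 6808771 and 11071456 reads per library were assigned to genes. Levels are CPM, the reads of a gene per 1000000 reads of the tested genes, scaled by TMM. In these bulk libraries, fewer cells of a kind and less RNA per cell cannot be told apart. RNF6, the siRNA's target, had 16.5, 16.2 and 16.9 CPM in RNF6 siRNA replicates 1, 2 and 3, against 54.3, 45.2 and 57.8 CPM in control replicates 1, 2 and 3. Of 11 markers of colon epithelium, 5 averaged under 1 CPM: VIL1, LGALS4, CEACAM5, GPA33, and CDX1 with 0 reads. Of VIL1, 44.0% lies under exons of other genes. EPCAM had 206.6 to 242.3 CPM over the 6 libraries. CDH1 had 111.4 to 115.1 CPM in RNF6 siRNA and 104.2 to 106.9 CPM in control libraries. CDX2 had 15.2 to 16.7 CPM in RNF6 siRNA and 13.2 to 18.1 CPM in control libraries. The 5 low markers do not back the label of a colorectal line, while EPCAM, CDH1 and CDX2 were found in every library. The identity of the cells was not tested. The epithelial markers summed to 1629 to 1861 CPM in RNF6 siRNA and 3190 to 4139 CPM in control libraries, and 3 of the 6 tested were called lower. Most of that sum was the keratin gene KRT8, at 1256 ± 103.8 CPM in RNF6 siRNA and 3064 ± 441.9 CPM in control libraries (SD, n = 3 each). KRT18 and KRT20 were the other lower ones, while EPCAM (log2 fold change 0.06), CDH1 (0.10) and CDX2 (0.01) were not called. Summed markers of leukocytes and of endothelium stayed under 3 CPM in every library. The leukocyte marker CD68 had 0 reads, but 85.8% of it lies under exons of other genes. Those of fibroblasts summed to 70.0 to 84.8 CPM in RNF6 siRNA and 50.1 to 65.4 CPM in control libraries, almost all of it COL1A1, which was called higher. Whether any of this has a part in the values below was not tested.

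CDK14 was the member with the largest fold change. It had 22.1, 24.8 and 24.5 CPM in RNF6 siRNA replicates 1, 2 and 3, against 6.60, 4.03 and 5.55 CPM in control replicates 1, 2 and 3. Every RNF6 siRNA library was therefore far above every control library, and the lowest value was that of control replicate 2. The means were 23.8 ± 1.49 CPM in RNF6 siRNA and 5.39 ± 1.29 CPM in control libraries (SD, n = 3 each), a 4.44-fold rise (log2 fold change 2.15, SE 0.17). This is the 14th highest log2 fold change of the 14685 genes tested. Behind these levels stand 168 to 273 reads per RNF6 siRNA library and 36 to 52 reads per control library. The control level is the less exact of the groups, with a coefficient of variation of 24.0% against 6.28% in RNF6 siRNA libraries.

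CCNY, the cyclin that activates CDK14, went the other way. It had 52.8, 56.2 and 48.5 CPM in RNF6 siRNA replicates 1, 2 and 3, against 72.6, 68.5 and 72.4 CPM in control replicates 1, 2 and 3. The groups did not overlap, and the control libraries lay close together. CCNY averaged 52.5 ± 3.87 CPM in RNF6 siRNA and 71.2 ± 2.33 CPM in control libraries (SD, n = 3 each), a 1.36-fold fall (log2 fold change −0.44, SE 0.10).

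CCNYL1, the other activating cyclin, was not called. It had 39.4, 43.4 and 40.6 CPM in RNF6 siRNA replicates 1, 2 and 3, against 38.9, 39.4 and 39.6 CPM in control replicates 1, 2 and 3. The groups overlapped, and the log2 fold change of 0.06 was smaller than its SE of 0.10. The pseudogene CCNYL2, a row of its own, averaged 16.7 ± 0.59 CPM in RNF6 siRNA and 14.4 ± 1.15 CPM in control libraries (SD, n = 3 each) and was not called, although its groups did not overlap (log2 fold change 0.22, SE 0.13).

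**Figure D1:**
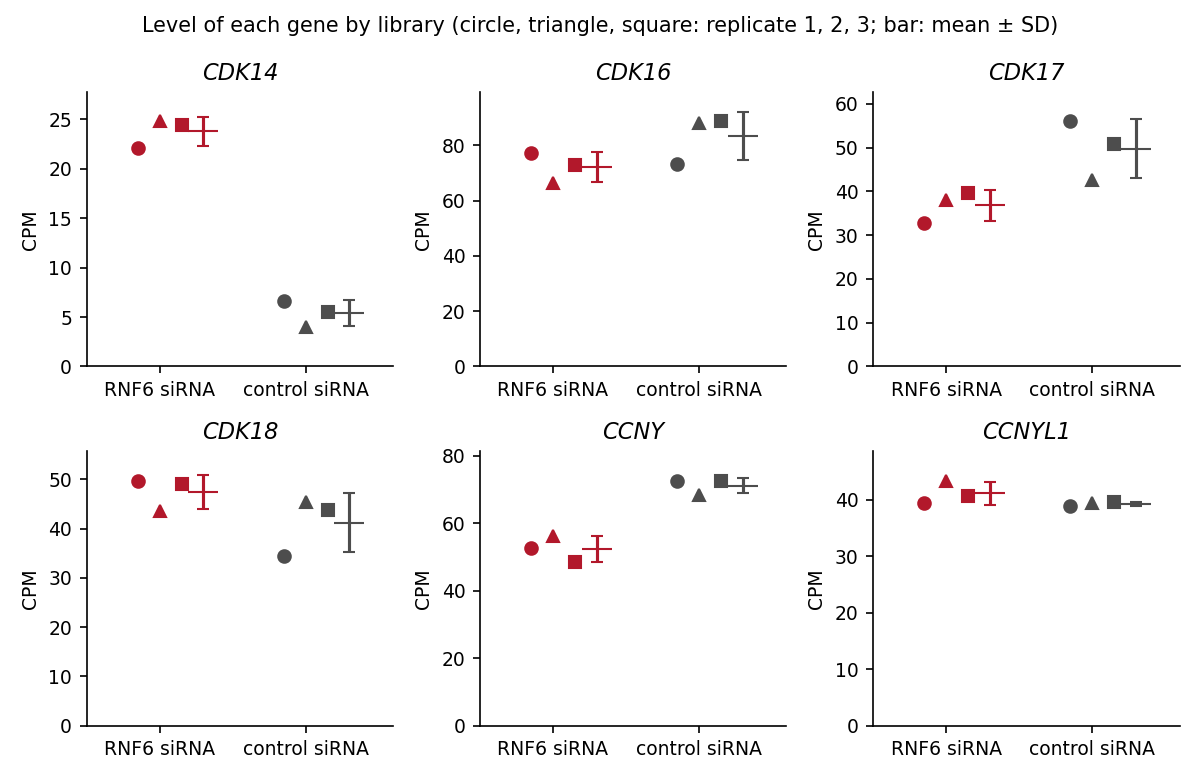
Level of the 6 genes in CPM on the vertical axis, each from 0, with RNF6 siRNA libraries on the left and control siRNA libraries on the right; symbols are the replicates and the bar is the mean ± SD of 3. CDK14 lies at 22.1 to 24.8 CPM in RNF6 siRNA and 4.03 to 6.60 CPM in control libraries, CCNY and CDK17 are lower in RNF6 siRNA libraries without overlap, and the other three overlap.

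Among the PCTAIRE kinases, CDK17 was lower and the other two overlapped between the groups. CDK17 had 32.8, 38.1 and 39.6 CPM in RNF6 siRNA replicates 1, 2 and 3, against 56.0, 42.5 and 50.8 CPM in control replicates 1, 2 and 3. No library of one group reached the other, and RNF6 siRNA replicate 3 and control replicate 2 lay closest. CDK17 averaged 36.8 ± 3.57 CPM in RNF6 siRNA and 49.8 ± 6.79 CPM in control libraries (SD, n = 3 each), 1.35-fold lower (log2 fold change −0.43, SE 0.13). When 1 library was left out, its call ended without control replicate 3 (log2 fold change −0.43) and without RNF6 siRNA replicate 1 (−0.35).

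CDK16, the most abundant of the kinases, had 77.1, 66.4 and 72.9 CPM in RNF6 siRNA replicates 1, 2 and 3, against 73.3, 88.1 and 88.6 CPM in control replicates 1, 2 and 3. Control replicate 1 lay within the RNF6 siRNA range and the other control libraries above it. The log2 fold change was −0.21 (SE 0.11) and did not pass the threshold. It passed without control replicate 1 (log2 fold change −0.30). CDK18 had 49.7, 43.5 and 49.1 CPM in RNF6 siRNA replicates 1, 2 and 3, against 34.4, 45.4 and 43.8 CPM in control replicates 1, 2 and 3. The groups overlapped through control replicates 2 and 3, and the log2 fold change of 0.20 (SE 0.13) did not pass. Control replicate 1 was thus the lowest control library for CDK16 and CDK18 and the highest for CDK14 and CDK17.

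Counted together, 1 of the 6 genes (CDK14) was called higher and 2 (CCNY and CDK17) lower, at an adjusted p below 0.05 by edgeR's quasi-likelihood test over all genes. Over all genes tested, 16.6% were called higher, 16.1% lower and 32.7% either way. The groups' libraries did not overlap for the same 3 members, nor for 44.2% of all tested genes (22.4% higher and 21.8% lower). Because the comparison was used to draw up the set, nothing is read from these counts. The other 5 genes all differed by less than 1.5-fold.

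**Figure D2:**
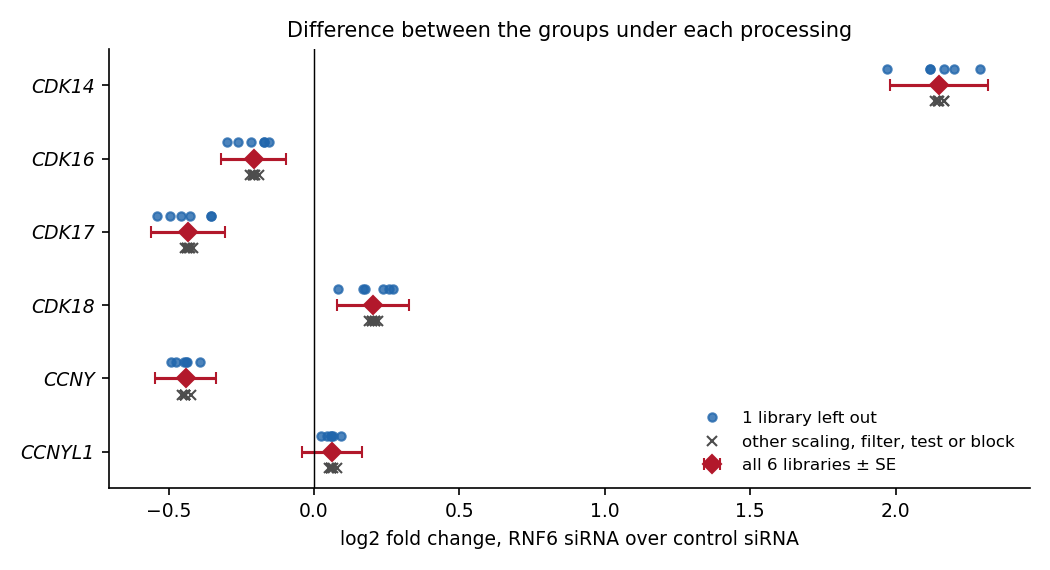
Log2 fold change of each gene, RNF6 siRNA over control siRNA, on the horizontal axis: diamonds with bars are the value from all 6 libraries ± SE, circles leave out 1 library at a time, and crosses use another scaling, filter, test or the replicate block. CDK14 stays between 1.97 and 2.29 when 1 library is left out, and no gene changes its sign.

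Levels of different genes can be compared only per length, here as CPM per kilobase of merged annotated exons. In RNF6 siRNA libraries CDK16 led with 11.1 ± 0.828 CPM per kilobase, followed by CCNY with 9.14 ± 0.673, CCNYL1 with 8.74 ± 0.439, CDK18 with 6.95 ± 0.501, CDK17 with 5.63 ± 0.545 and CDK14 with 3.48 ± 0.218 (SD, n = 3). In control libraries the order was CDK16 with 12.8 ± 1.33, CCNY with 12.4 ± 0.406, CCNYL1 with 8.35 ± 0.0702, CDK17 with 7.60 ± 1.04, CDK18 with 6.03 ± 0.874 and CDK14 with 0.788 ± 0.189 CPM per kilobase (SD, n = 3). CDK14 was the least abundant of the 6 in both groups. Neighbours whose libraries overlapped were CCNY and CCNYL1 among the RNF6 siRNA libraries, and CDK16 with CCNY, CCNYL1 with CDK17, and CDK17 with CDK18 among the control libraries. Per kilobase of the longest transcript the order of the middle genes differed, while CDK16 stayed first and CDK14 last in both groups.

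**Figure D3:**
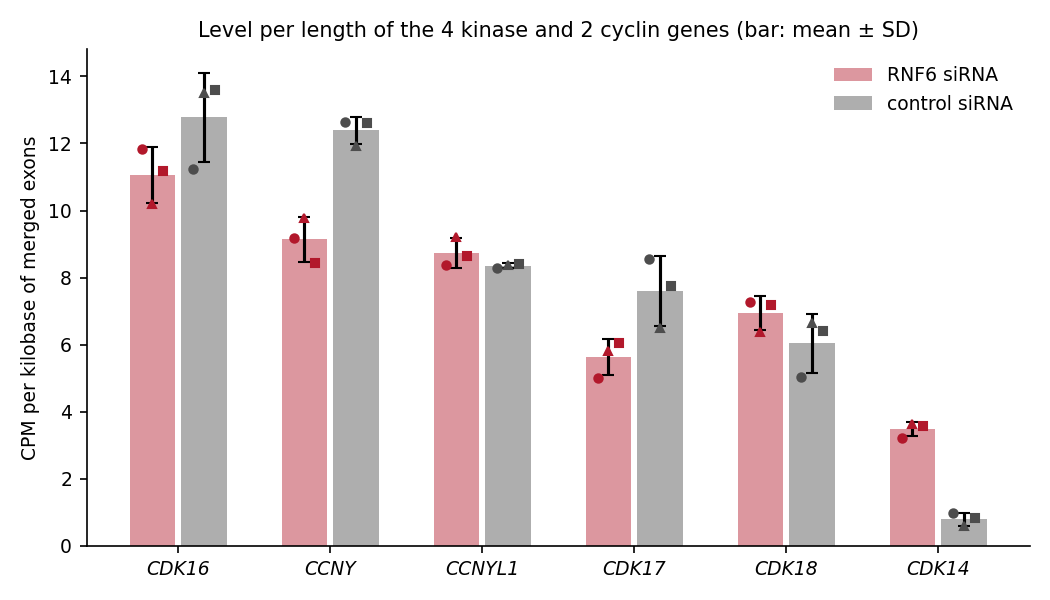
CPM per kilobase of merged exons for each gene, ordered by the control mean; paired bars are the mean ± SD of 3 RNF6 siRNA (left) and 3 control siRNA (right) libraries, and symbols are libraries. CDK14 is lowest in both groups, at 3.48 in RNF6 siRNA and 0.788 in control libraries.

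The 4 kinase genes together overlapped between the groups in summed level, while CDK14 held a larger share of it in RNF6 siRNA libraries. The sum was 27.3, 26.0 and 28.0 CPM per kilobase in RNF6 siRNA replicates 1, 2 and 3, against 25.8, 27.2 and 28.6 CPM per kilobase in control replicates 1, 2 and 3. CDK14 made up 11.8%, 13.9% and 12.8% of this sum in RNF6 siRNA replicates 1, 2 and 3, against 3.74%, 2.16% and 2.84% in control replicates 1, 2 and 3. The share of CDK17 averaged 20.8% ± 2.15 in RNF6 siRNA and 28.1% ± 4.72 in control libraries, and that of CDK16 40.8% ± 2.17 in RNF6 siRNA and 46.9% ± 3.05 in control libraries (SD, n = 3 each). CDK18 held 25.6% ± 1.06 in RNF6 siRNA and 22.1% ± 2.47 in control libraries.

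**Figure D4:**
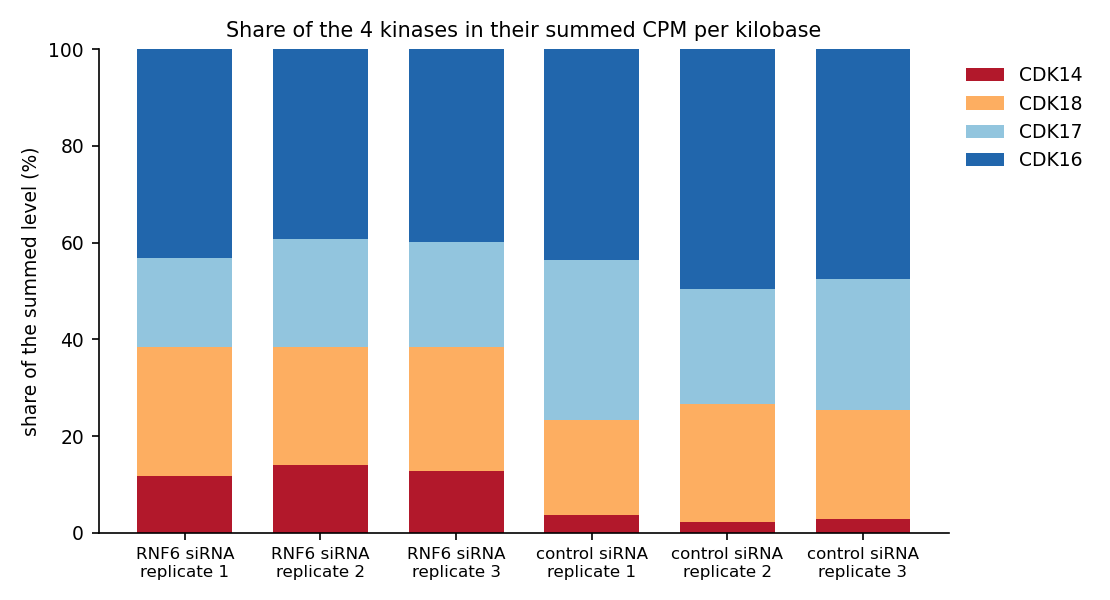
Share of CDK14, CDK18, CDK17 and CDK16 in their summed CPM per kilobase, in percent, with 1 bar per library, RNF6 siRNA libraries first. The CDK14 share is 11.8% to 13.9% in RNF6 siRNA and 2.16% to 3.74% in control libraries.

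On the cyclin side, CCNY and CCNYL1 summed to 17.6, 19.0 and 17.1 CPM per kilobase in RNF6 siRNA replicates 1, 2 and 3, against 20.9, 20.3 and 21.02 CPM per kilobase in control replicates 1, 2 and 3. All RNF6 siRNA libraries lay below all control libraries. CCNY made up 51.1% ± 1.49 of the pair in RNF6 siRNA and 59.7% ± 0.878 in control libraries (SD, n = 3 each). Per kilobase, CDK14 reached 0.382 ± 0.0376 of the CCNY level in RNF6 siRNA and 0.0633 ± 0.0135 in control libraries. These are transcript levels, and neither protein nor kinase activity was measured.

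None of the measured genes beside CDK14 on chromosome 7 was called higher. CLDN12, a claudin gene on one side, averaged 41.9 ± 5.14 CPM in RNF6 siRNA and 57.3 ± 13.1 CPM in control libraries, with overlapping groups (SD, n = 3 each). It was called lower (log2 fold change −0.45, adjusted p = 0.0409 by edgeR), and that call held with control replicate 2 left out but with no other library left out. The log2 fold change was −0.28 when control replicate 1 was left out (adjusted p = 0.0801 by edgeR) and −0.48 when control replicate 3 was (0.0916). It was −0.35, −0.51 and −0.50 when RNF6 siRNA replicate 1 (0.108), 2 (0.0685) or 3 (0.0890) was. Its adjusted p lay between 0.00149 and 0.138 under the alternatives run with edgeR, DESeq2 and limma. The Wnt receptor gene FZD1 on the other side averaged 21.1 ± 0.863 CPM in RNF6 siRNA and 22.8 ± 2.10 CPM in control libraries and was not called (log2 fold change −0.11, SE 0.12). GTPBP10 (log2 fold change 0.08), MTERF1 (−0.12) and AKAP9 (0.24), farther out, were not called either, although AKAP9 passed without control replicate 1 (0.36). FAM237B was not analysed here.

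The genes whose profiles over the 6 libraries came closest to that of CDK14 were SETD7, GANAB, CYP1B1, SRD5A1 and ARHGAP19. Likeness was the root-mean-square distance between centred log2(CPM + 0.5) profiles, compared across the 11735 tested genes that averaged 5 CPM or more. Such profiles hold the group difference on which CDK14 was selected, so the nearest genes are bound to rise strongly too. Their log2 fold changes were 1.88, 2.09, 2.20, 1.69 and 1.78 in the order named, and nothing is read from their likeness. SETD7, a lysine methyltransferase gene, lay at a distance of 0.137. It had 134.3, 146.4 and 162.9 CPM in RNF6 siRNA replicates 1, 2 and 3, against 48.3, 34.6 and 38.2 CPM in control replicates 1, 2 and 3, so that, as for CDK14, control replicate 1 was the highest and control replicate 2 the lowest control. The distances of GANAB, which encodes a glucosidase subunit of the endoplasmic reticulum, CYP1B1, a cytochrome P450 gene, SRD5A1, a steroid reductase gene, and ARHGAP19 were 0.176, 0.231, 0.235 and 0.259. Exons of other genes overlap 24.1% of ARHGAP19.

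Other numbered cyclin-dependent kinases were called in both directions. This list and those below were chosen with earlier results of these data known. Nothing is therefore read from their called shares, and the p-values of their genes are no independent evidence. Of 17 listed, 15 were tested, and 4 were called higher, 2 lower and 9 neither way. The called share was 40.0% of those tested, against 32.7% of all genes. The median log2 fold change was −0.05, against 0.01 for all tested genes. CDK6, the G1 kinase that pairs with D-type cyclins, had the highest mean CPM of the list, not scaled by length. It averaged 342.1 ± 54.2 CPM in RNF6 siRNA and 158.5 ± 25.6 CPM in control libraries (SD, n = 3 each). That is 2.16-fold higher in RNF6 siRNA libraries (edgeR adjusted p = 7.44e-05). CDK9, the kinase of the elongation factor P-TEFb, rose 1.69-fold, CDK19, a kinase of Mediator, 1.51-fold and the mitotic kinase gene CDK1 1.27-fold. The genes called lower were CDK5 (1.46-fold), whose product is known to phosphorylate CDK16, with overlapping groups, and CDK20 (1.38-fold).

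The calls of CDK1, CDK5 and CDK20 lay near the threshold, and each ended when any of several libraries was dropped. For CDK1 the log2 fold change, 0.34 with all libraries, was then 0.29 without control replicate 2 (edgeR adjusted p = 0.0594) and 0.29 without control replicate 3 (0.135). It was 0.30 without RNF6 siRNA replicate 2 (0.0805) and 0.35 without RNF6 siRNA replicate 3 (0.0692), and the adjusted p lay between 0.00140 and 0.135 under all alternatives. For CDK5, at −0.55 with all libraries, dropping the same libraries in turn gave log2 fold changes of −0.42, −0.48, −0.49 and −0.55 (edgeR adjusted p = 0.0520, 0.106, 0.0924 and 0.0828), with values between 4.21e-05 and 0.106. For CDK20, at −0.46 with all libraries, the log2 fold change was −0.39 with control replicate 3 dropped (edgeR adjusted p = 0.141), −0.37 with RNF6 siRNA replicate 2 (0.101), −0.53 with RNF6 siRNA replicate 3 (0.0619) and −0.47 under DESeq2 (0.0612). Its adjusted p lay between 0.0191 and 0.141. The list held 1 lower gene when control replicate 2 was dropped, and 0 when control replicate 3 or RNF6 siRNA replicate 2 or 3 was. Over all genes, the lower calls fell from 2364 to 1478 when RNF6 siRNA replicate 3 was dropped.

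The list of cyclin genes other than CCNY and CCNYL1 includes the pseudogenes CCNYL2, which was tested, and CCNYL3, which was not. Of its 27 entries, 23 were tested, and 5 were called higher and 6 lower (47.8% of those tested, against 32.7% of all genes, with a median log2 fold change of −0.16). CCNE1, the cyclin E gene of the G1 to S transition, fell 2.47-fold to 16.3 ± 0.840 CPM in RNF6 siRNA libraries, against 40.4 ± 2.93 CPM in control libraries (SD, n = 3 each, edgeR adjusted p = 7.19e-06). CCNJ fell 2.49-fold, and the cyclin D1 gene CCND1, with the highest mean CPM of the list, 1.81-fold. CCNC, the cyclin of the Mediator kinases CDK8 and CDK19, fell 1.38-fold. The mitotic cyclin gene CCNB2 rose 1.76-fold and CCNF, an F-box protein gene, 1.61-fold. Without control replicate 3, 3 cyclin genes were higher, while over all genes the higher calls fell from 2442 to 1514.

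The Wnt list holds the receptors, coreceptors, kinases, scaffolds and nuclear factors around LRP6, the substrate of CDK14 with cyclin Y. Of 39 listed, 35 were tested, and 10 were called higher and 6 lower (45.7% of those tested, against 32.7% of all genes, with a median log2 fold change of 0.06). DKK1, a secreted inhibitor that binds LRP6, fell 2.26-fold to 201.1 ± 14.3 CPM in RNF6 siRNA libraries, against 454.7 ± 8.18 CPM in control libraries (SD, n = 3 each, edgeR adjusted p = 3.13e-06). The nuclear factor genes TCF7L1 and TCF7L2 rose 2.02-fold and 1.63-fold. RNF43, a ligase that removes Frizzled receptors, rose 1.54-fold, although 73.9% of it lies under exons of other genes and its level is uncertain. CSNK1G3, of the casein kinase 1 gamma group that phosphorylates LRP6, rose 1.38-fold, and the receptor gene FZD3 1.48-fold. The rest of the called genes went both ways. TCF7, DVL2, CSNK1G1, FZD7 and AXIN1 were higher. Lower were the coreceptor gene LRP5 (log2 fold change −0.43), the receptor gene FZD6 (−0.54), GSK3A (−0.48) and ZNRF3 (−0.37). FZD9 was lower too (−1.09), with only 5 to 31 reads per library.

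The calls of CSNK1G3 and FZD3 also ended when a library was dropped, with little change in the fold. Dropping RNF6 siRNA replicate 3 gave CSNK1G3 a log2 fold change of 0.44, against 0.46 with all libraries (edgeR adjusted p = 0.0503, with values between 9.47e-04 and 0.0578 under all alternatives). FZD3, at 0.56 with all libraries, had 0.53 with control replicate 3 dropped (0.0519) and 0.52 with RNF6 siRNA replicate 3 dropped (0.0545), with values between 1.43e-04 and 0.0565. The list held 4 higher genes when control replicate 3 was dropped, and 3 higher and 3 lower when RNF6 siRNA replicate 3 was. Over all genes, the higher calls fell from 2442 to 1514 without control replicate 3. The lower calls over all genes fell from 2364 to 1478 without RNF6 siRNA replicate 3.

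LRP6 itself, named here after its values were seen, had 50.1, 67.0 and 59.5 CPM in RNF6 siRNA replicates 1, 2 and 3, against 89.7, 59.2 and 77.1 CPM in control replicates 1, 2 and 3. Control replicate 2 lay within the RNF6 siRNA range, and LRP6 was not called (log2 fold change −0.36, SE 0.15, edgeR adjusted p = 0.0873). It was called lower with control replicate 2 dropped (log2 fold change −0.51, edgeR adjusted p = 0.00458) and with genes of few reads kept in the test (0.0222), and its values lay between 0.00458 and 0.233. CTNNB1, which encodes β-catenin, had the highest mean CPM of the list. It averaged 516.7 ± 22.3 CPM in RNF6 siRNA and 451.1 ± 12.6 CPM in control libraries (SD, n = 3 each). CTNNB1 was not called (log2 fold change 0.20, SE 0.09).

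The last list holds 26 genes whose products have been reported to bind, regulate or be phosphorylated by these kinases or cyclin Y. All 26 were tested, and 6 were called higher and 9 lower (57.7%, against 32.7% of all genes, with a median log2 fold change of 0.04). As for the other lists, nothing is read from this share. CDK5 and CCND3 also stand in the lists above. The gene of the cell-cycle inhibitor p21, CDKN1A, fell 2.29-fold (edgeR adjusted p = 5.75e-06). PRKACA encodes a catalytic subunit of protein kinase A, which phosphorylates CDK16 and blocks its binding to cyclin Y. It fell 2.28-fold to 46.4 ± 5.05 CPM in RNF6 siRNA libraries, against 106 ± 10.6 CPM in control libraries (SD, n = 3 each, edgeR adjusted p = 1.54e-05). PRKAA1, a catalytic subunit of AMPK, the energy-sensing kinase that phosphorylates cyclin Y, fell 1.73-fold, and the cyclin D3 gene CCND3 by 0.58 on the log2 scale.

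Among reported substrates of CDK16, NSF and PRC1 rose. NSF, an ATPase of membrane fusion, rose 1.53-fold, and PRC1, which bundles microtubules in the dividing cell, 1.502-fold, with 58.4% of PRC1 under exons of other genes. The 14-3-3 gene YWHAZ had the highest mean CPM of the list. It averaged 1482 ± 78.0 CPM in RNF6 siRNA and 1319 ± 87.1 CPM in control libraries (SD, n = 3 each). YWHAZ was not called (log2 fold change 0.17, SE 0.10). Without control replicate 3, 2 genes of the list were higher, while over all genes the higher calls fell from 2442 to 1514. Without RNF6 siRNA replicate 3, 5 of the list were lower, while over all genes the lower calls fell from 2364 to 1478.

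**Figure D5:**
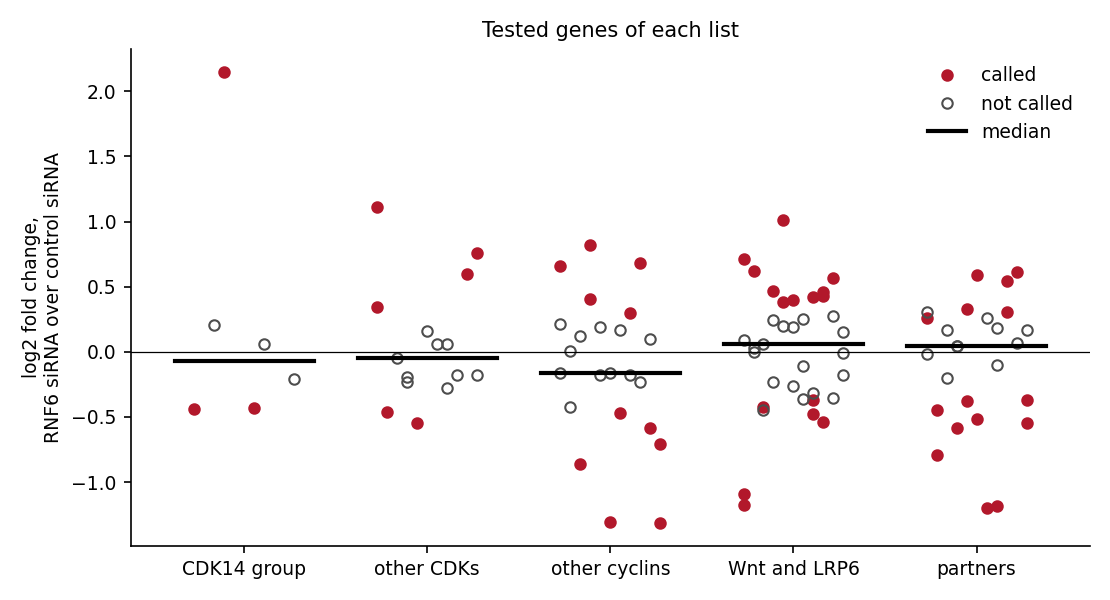
Log2 fold change, RNF6 siRNA over control siRNA, of every tested gene in the CDK14 group and in the 4 lists; filled points were called, open points were not, and the horizontal bar is the list's median. CDK14, selected on its rise in this comparison, lies at 2.15, above every tested gene of the 4 lists, the highest of which is CDK6.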

How the data were processed

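Total RNA of cells labelled HT29 was made into 6 TruSeq libraries, per the labels' protocols. For each library the authors deposited 1 table of raw read counts by gene symbol. Reads were aligned with TopHat2 2.0.11 to hg19 and counted with HTSeq, per the submitters' processing notes, while their strand setting and annotation release were not stated there. Reads of a gene and of an antisense partner cannot be told apart. Rows that name no gene held 27.3% to 29.4% of the reads and were left out.

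Groups and replicate numbers come from the sample titles. Genes were kept by filterByExpr (minimum count 10, minimum total 15), scaled by TMM and tested over all 6 libraries with edgeR 4.0.16 in R 4.3.3 (glmQLFit and glmQLFTest, robust, two-sided, Benjamini-Hochberg over 14685 genes, threshold 0.05). The test was also run on simulated counts with independent replicates, in which 200 genes were changed. Far more genes were called in the real data, so that run cannot vouch for these calls. Fold changes are RNF6 siRNA over control siRNA, and the SE of their log2 is the log2 value over the root of F. Alternatives were RLE and upper-quartile scaling, no filter, DESeq2 1.42.0, limma-voom 3.58.1, the replicate block and each library left out. Exon lengths, overlaps and motif bases come from GENCODE 29 on GRCh38, while the counts used hg19, so no coordinate is given.

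The members and the 4 gene lists were chosen with earlier results of these data known. RNF6 and CDK15 are always named, and from each list the up to 6 called genes with the smallest adjusted p and the most abundant gene. For the Wnt list the remaining called genes are named as well. The 5 profiles most like CDK14 and 3 coding neighbours on each side of it are named too. A gene outside the 6 that is said to rise or fall had an adjusted p below the threshold, whether or not it is printed.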

Additional observations from a re-analysis of the deposited data

How the results depend on the processing

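RLE and upper-quartile scaling, limma-voom, DESeq2 and the absence of a filter left the call and direction of all 6 members as reported. When 1 library was left out, the log2 fold change of CDK14 ran from 1.97 to 2.29, that of CCNY from −0.49 to −0.39, that of CDK17 from −0.54 to −0.35, that of CDK16 from −0.30 to −0.15, that of CDK18 from 0.08 to 0.27 and that of CCNYL1 from 0.02 to 0.09. Members called higher stayed at 1, and those called lower ran from 1 to 3. Counts over all genes then ran from 1514 to 2910 higher and from 1478 to 2967 lower. List counts ran from 0 to 2 lower kinases, 3 to 6 higher cyclins, 3 to 11 higher and 3 to 8 lower Wnt genes, and 2 to 7 higher and 5 to 9 lower partners.

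The labels do not say whether the replicate numbers pair the samples. Same-numbered libraries had correlations of −0.46, −0.25 and 0.05 in their deviations from the group means. Differently numbered libraries ran from −0.24 to 0.46. These values show no sign of pairing but cannot exclude it, since other differences between libraries also enter them. With the number as a replicate block, the calls of CDK17 (log2 fold change −0.43) and CCNY (−0.44) ended, 0 members were lower, and 1421 genes were higher and 1321 lower. Under that block 0 other kinases were lower, 3 Wnt genes higher and 1 lower, and 2 partners higher and 4 lower. DESeq2 called 1 kinase of the list lower, and without the filter 11 Wnt genes were lower. The cause was not tested.

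Per kilobase of the longest transcript, levels in RNF6 siRNA libraries were 4.61 for CDK14, 22.8 for CDK16, 8.86 for CDK17, 12.6 for CDK18, 11.01 for CCNY and 10.9 for CCNYL1. In control libraries they were 1.04, 26.4, 12.0, 10.98, 14.9 and 10.4 in the same order. With 36 to 52 reads per control library, CDK14 is the member whose control level depth limits most.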
